A study of Rattus norvegicus with 6 samples.

Results

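The lungs of rats that had inhaled nickel oxide (NiO) were compared with clean-air lungs at 3 days and again at 1 month after exposure ended, and every gene was sorted by whether its response had been lost, had been kept or had come late. All 24823 of the 24823 genes measured entered this sorting. For each gene the quantity tested was the difference of differences: the NiO effect at 1 month minus the NiO effect at 3 days, on a log2 scale. The arrays came from male Wistar rats, 9 weeks old at exposure, that spent 6 h a day on 5 days a week for 4 weeks in a whole-body chamber. They breathed either clean air or an aerosol of ultrafine NiO particles, the positive control of a study whose test material was C60 fullerene. Right lungs were taken after saline perfusion, 3 or 33 days after the last exposure, and the later time is called 1 month here. Clean air was represented by 3 lungs at 3 days and 4 at 1 month, and NiO by 4 lungs at each time. Whole-lung RNA mixes all cell types of the organ, so that fewer cells of a type and less RNA per cell cannot be told apart.

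Particles that settle in the air spaces are cleared mainly by alveolar macrophages, which engulf them and carry them in their lysosomes. Macrophages and epithelial cells that meet such particles can release chemokines: those of the CXC group that bind Cxcr2 attract neutrophils, and many of the CC group attract monocytes and lymphocytes. A response is said to resolve when these signals return to the level of unexposed tissue, and what remains afterwards often includes particle-laden macrophages.

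Values are the log2 of the processed spot signal minus the 75th percentile of that array, called scaled log2 signal below. A gene counted as called at a Benjamini-Hochberg adjusted p under 0.05 in a limma fit over the 15 arrays. Signals well above background made up 71.3% to 78.3% of the spots on the clean-air arrays of 1 month. On the arrays of the other groups they made up 62.7% to 69.1%. The part of this in the classes below was not tested. Correlations between arrays of a group ran from 0.946 to 0.987 for NiO at 3 days, from 0.962 to 0.99 for clean air at 1 month and from 0.99 to 0.996 in the other groups, across genes, which are not independent replicates. On the first principal component (33.3% of variance) NiO arrays 2 and 3 of 3 days (88.6 and 97.3) and clean-air array 2 of 1 month (71.9) lay far out together, and NiO array 1 of 3 days (-32.3) lay among the clean-air arrays of its time (-39.4 to -24.2). The arrays of a slide all belonged to the same group, which means that effects of slide and exposure cannot be told apart, and the clean-air arrays of the 2 times differed by themselves in 10182 genes (41%). Over all genes the median NiO effect was 0.04 at 3 days and -0.12 at 1 month, and the median difference between the times was -0.18. With quantile normalization that last median was 0.03. Markers of alveolar type II cells, which mark the tissue as lung, had a summed level, the log2 of their added scaled signals, of 10.02 to 10.78 on every array. The summed levels of 6 measured neutrophil markers overlapped in all groups (2.01 to 3.44), none of the 6 was called higher at either time, and 1 was called lower at 1 month.

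At 3 days NiO raised 1629 genes (6.56%) and lowered 1146 (4.62%), and at 1 month it raised 2134 (8.6%) and lowered 3722 (15%). The difference between the 2 effects was called for 7345 genes (29.6%), of which 2833 (38.6% of the calls) were higher and 4512 lower at 1 month. With quantile normalization the split turned, to 3669 higher (61.9%) and 2254 lower. Lost responses were those called at 3 days, not called at 1 month, and with the difference itself called in the opposite direction. There were 779 lost increases (3.14% of genes) and 594 lost decreases (2.39%). Kept responses, called in the same direction at both times, comprised 232 increases (0.935%) and 170 decreases (0.685%). Late responses, not called at 3 days, called at 1 month and with the difference called, comprised 1162 increases (4.68%) and 2026 decreases (8.16%). A further 319 genes were called higher at 3 days and lower at 1 month with the difference called, and 70 the other way round. The p-values measure the spread between the arrays of single slides.

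**Figure D1:**
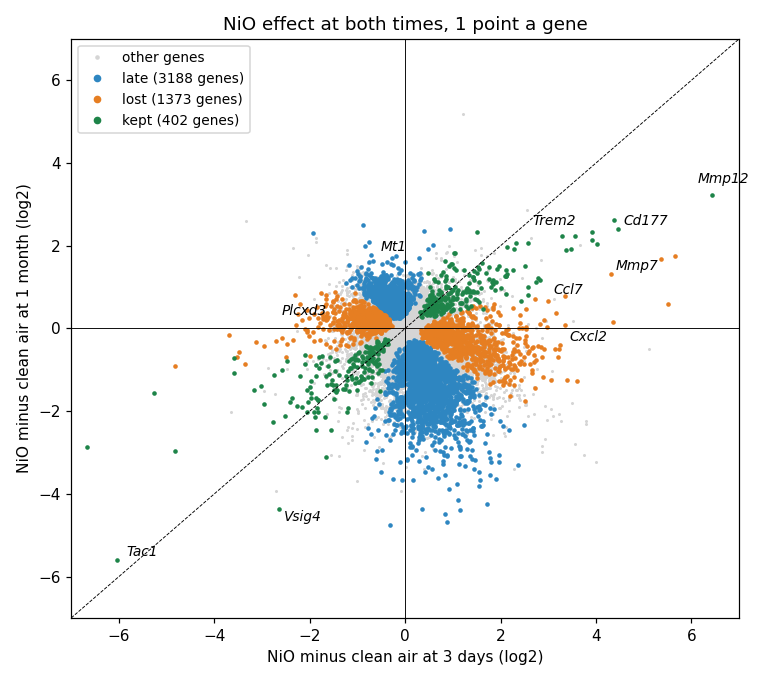
NiO effect at 3 days (x axis, log2) against NiO effect at 1 month (y axis, log2), 1 point a gene, with the lost (1373), kept (402) and late (3188) responses in colour and equal effects on the dashed line. Lost genes lie along the x axis, kept genes where both effects have the same sign, and late genes along the y axis. The class of a gene follows from these 2 effects, so the separation of the colours is not a result.

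A difference of differences can come from any of the 4 groups, and the 4 means show which one stood apart. In the lost increases the median scaled log2 signals were -3.33 for clean air and -2.09 for NiO at 3 days, and -2.39 for clean air and -2.64 for NiO at 1 month. The NiO mean of 3 days lay above all 3 other means, with the clean-air mean of 3 days not the lowest, in 114 of the 779 genes (14.6%). The clean-air mean of 3 days alone stood apart, below the rest, in 328 (42.1%), and both did in 337. For the late increases the medians were 0.75, 0.45, -0.01 and 0.66 in the same order of groups. The clean-air mean of 1 month alone stood apart, below the rest, in 716 of 1162 genes (61.6%). The NiO mean of 1 month alone stood apart, above the rest, in 167 (14.4%), and both did in 278. The kept classes were different in this respect by the way they are defined, with both NiO means beyond both clean-air means in 214 of 232 increases and 145 of 170 decreases. Lost decreases were on the NiO side in 192 of 594 genes, on the clean-air side in 176 and on both in 226. Late decreases were on the NiO side in 406 of 2026, on the clean-air side in 513 and on both in 1107.

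**Figure D2:**
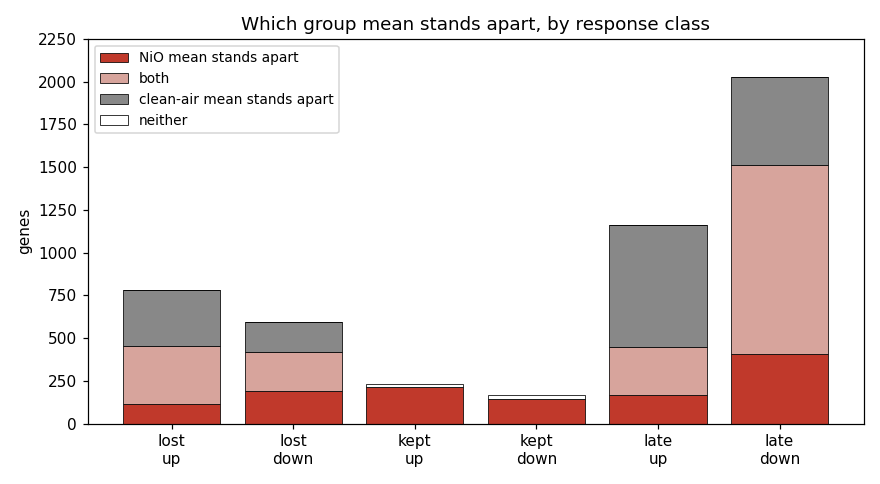
Number of genes (y axis) in each response class, stacked by the group mean that stood apart from the other 3: the NiO mean, the clean-air mean, both or neither. The clean-air part is the largest in the late increases (716 of 1162) and absent from the kept classes, where both NiO means must lie beyond the clean-air means to count as NiO side.

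The C60 lungs of the same times offered another reference, although only 2 of their 4 arrays of 3 days were used, as the n of their label and the deposited table both pointed to. With them in place of the clean-air lungs, 83 genes were called in the difference of differences (37 higher, 46 lower), and 31 of these had been called in the same direction with clean air (37.3% of the 83 and 0.422% of the 7345). Both versions share the NiO arrays. The median difference of the lost increases was -1.36 with clean air and -0.47 with C60, and that of the late decreases was -1.66 and -0.4. The kept increases had median effects of 0.85 at 3 days and 0.71 at 1 month against clean air, and 0.77 and 0.58 against C60. Kept increases were called at both times with C60 for 57 of 232 genes (24.6%), lost increases were again lost for 5 of 779 (0.642%), and late increases were again late for 0 of 1162. That last count rests on limma's adjusted p with 10 residual degrees of freedom, and in the same fit 136 genes were called higher at 1 month.

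Among 8 measured genes of the neutrophil-attracting chemokine list, 2 were lost increases (Cxcl1 and Cxcl2) and 2 kept ones, beside 3.14% and 0.935% of all genes. Cxcl1 and Cxcl2, ligands of the receptor Cxcr2, both carry a match to the NF-kB motif just upstream of their start. Of the lost chemokines searched, only these 2 held a match, and only their sequences are shown. Ccl7, Ccl17 and Ccl22 held none within 250 bases. Cxcl1 and Cxcl2 also had the largest differences between the times among the lost chemokines with a measured level in every group. By the 3-day effect alone, Ccl7 (3) lay above Cxcl1 (2.82). NF-kB is the transcription factor family that drives many inflammatory genes. Each stretch of 120 bases is taken from RefSeq (GRCr8) and read 5′ to 3′ along the gene, and capitals mark the 11 bases covered by overlapping matches to the NF-kB motif, searched on both strands. The Cxcl1 window is chr14:17479326-17479445 on the minus strand and the Cxcl2 window chr14:17467256-17467375, also on the minus strand, both just upstream of the annotated start of the gene.
Cxcl1: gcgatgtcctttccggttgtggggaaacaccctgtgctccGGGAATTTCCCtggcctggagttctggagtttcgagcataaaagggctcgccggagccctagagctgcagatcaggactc
Cxcl2: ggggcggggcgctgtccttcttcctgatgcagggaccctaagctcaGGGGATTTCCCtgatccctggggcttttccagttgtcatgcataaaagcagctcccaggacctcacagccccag
Of the 8 genes of the neutrophil-attracting and CC chemokine lists that were lost increases, 5 had a promoter in the sequence table and 2 of these held the motif within 250 bases, against 967 of 27457 promoters (3.52%) in all. Among all lost increases with a promoter, 8 of 190 held it (4.21%). A match is a description of the letters and says nothing of binding.

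Cxcl2 had scaled log2 signals of -3.41, -4.02 and -3.55 on the clean-air arrays of 3 days and of -0.88, 0.03, 0.1 and -0.54 on the NiO arrays. At 1 month the clean-air arrays read -3, -1.95, -2.31 and -1.97 and the NiO arrays -1.87, -2.3, -1.47 and -3.21. The NiO and clean-air arrays were thus far apart at 3 days and interleaved at 1 month, where the clean-air level was itself higher than at 3 days. The effect went from 3.34 (SE 0.38) to 0.09 (SE 0.36), a difference of -3.24 (SE 0.52, adjusted p 0.00244 in limma). Cxcl1 read 0.35 to 0.83 in clean air and 2.95 to 3.62 in NiO at 3 days. At 1 month its clean-air arrays lay between 1.37 and 2.06 and its NiO arrays at 1.72, 1.6, 2.84 and 1.28. Only NiO array 3 of 1 month lay above the clean-air range of that time. The difference for Cxcl1 was -2.7 (SE 0.42, adjusted p 0.002), and both genes were called in each of the 15 fits that left out 1 array. With C60 as the reference neither call held, at -1.8 (adjusted p 0.138) for Cxcl1 and -2.68 (adjusted p 0.0586) for Cxcl2. Cxcr1, a receptor of neutrophils, had effects of 1.33 and 0.94 and was kept, as was Cxcl3 (0.49 and 0.66). List members given without array values, such as these, were picked after their values were seen.

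Among the CC chemokines 11 of 17 measured genes were lower in the difference of differences and 0 higher, where 18.2% of all genes were lower. The count of lower calls was 5 with quantile normalization and 9 with normexp background correction. Lost increases numbered 6: Ccl2 and Ccl7, which attract monocytes, Ccl3 and Ccl4, chemokines of macrophages, and Ccl17 and Ccl22, the ligands of Ccr4 on T cells. Ccl22 stood out for a 3-day rise with no shift of the clean-air level. Its clean-air arrays read -3.22, -3.28 and -2.84 at 3 days and -3.31, -3.41, -3.01 and -3.05 at 1 month. Its NiO arrays read -0.57, -0.81, -0.81 and -0.63 at 3 days and -3.03, -3.07, -2.43 and -2.92 at 1 month. The NiO arrays of 3 days were the only group apart from the rest. The effect of 2.41 (SE 0.17) at 3 days and 0.33 (SE 0.16) at 1 month differed by -2.08 (SE 0.23, adjusted p 0.000183). With C60 as the reference the difference was -2.64 (adjusted p 0.000487), and it was called in all 15 leave-one-out fits.

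Ccl17 behaved alike, with means of -2.97 for clean air and -1.58 for NiO at 3 days and -3.18 and -2.89 at 1 month. Its difference was -1.11 (SE 0.3, adjusted p 0.0215 with clean air and 0.0165 with C60), and the call was lost without clean-air array 1 of 3 days (adjusted p 0.0555). Ccl2 had means of -1.67 in clean air and 0.86 in NiO at 3 days, and of -0.29 and 0.19 at 1 month, a difference of -2.05 (SE 0.41, adjusted p 0.0077). Ccl7 went from an effect of 3 to one of 0.67, and its difference of -2.34 (SE 0.57, adjusted p 0.0151) was matched by -2.2 from its other probe. For Ccl2 the clean-air mean was higher at 1 month than at 3 days by a called change of 1.38 (adjusted p 0.00309), while that of Ccl7 (0.77, adjusted p 0.153) was not called. With C60 the difference was not called for Ccl2 (-1.45, adjusted p 0.181) or Ccl7 (-2.63, adjusted p 0.0834). Ccl12, a monocyte attractant, was kept and reduced, with fitted effects of 2.75 and 1.12 and 1 of 3 clean-air arrays of 3 days above background. Ccl6 was kept with effects of 1 and 0.94, while Ccl11, which attracts eosinophils, was a late decrease (0.39 and -1.55) whose difference was not called in 6 of 15 leave-one-out fits (adjusted p up to 0.0684).

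**Figure D3:**
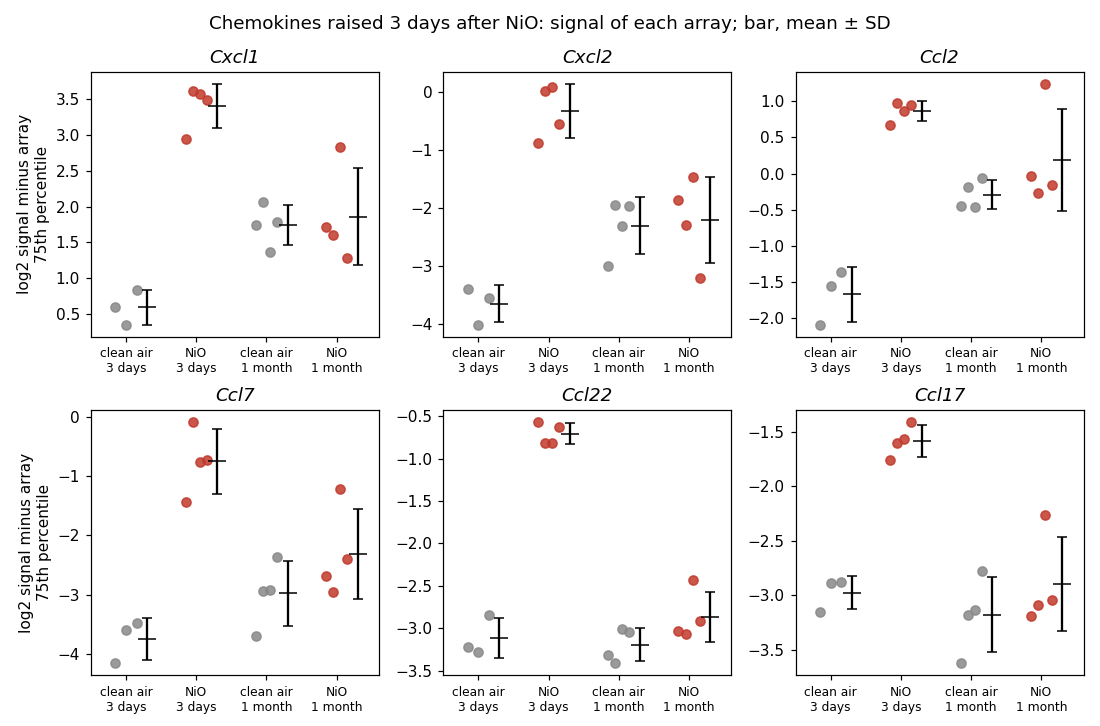
Scaled log2 signal (y axis) of 6 chemokine genes on each array of the 4 groups (x axis), with the mean and SD beside the points. NiO arrays of 3 days lie above every clean-air array of 3 days in all 6 panels, where the arrays of 3 days did not overlap for 23.2% of all genes. For Ccl22 and Ccl17 this was a condition of naming them. The clean-air arrays of 1 month lie above all of those of 3 days for Cxcl1, Cxcl2 and Ccl2 but overlap with them for Ccl7.

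The other NiO-side lost increases named by rule were Hk2 and Serinc4. Hk2 encodes hexokinase 2, the first enzyme of glucose use. It was not well above background on any clean-air array of 3 days and read -3.19, -3.41, -3.79 and -3.2 on the NiO arrays, so that it was at least 2.99-fold higher, where such a bound sets the NiO mean against the lowest signal measurable on the dim arrays. At 1 month its means were -5.27 and -4.96, and the difference was -1.27 or lower (adjusted p 0.00798). Serinc4, a member of the serine incorporator family, read -0.9, 1.53, 1.75 and -0.1 on the NiO arrays of 3 days against -1.17 to -1.03 in clean air. Its 2 high arrays were those that lay far out on the first principal component. It remained a lost increase in 2 of 15 leave-one-out fits, although the difference of -2.69 (SE 0.68, adjusted p 0.0169) was called in all of them. On the clean-air side the 2 genes with the largest differences were the olfactory receptors Or12e9 (-3.42 or lower) and Or2v2b (-2.23 or lower), neither well above background on any clean-air array of 3 days, and with C60 as the reference they came to -0.07 and -0.46.

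Sterol and fatty acid synthesis made up a further group of lost increases: 7 of 29 measured genes, where 3.14% of all genes were lost increases. A difference was called lower for 8 of the 29 and higher for 0, beside 18.2% and 11.4% of all genes. The lower calls numbered 7 with quantile normalization and 12 with normexp. Over all genes the lower calls went from 4512 to 2254 and to 5672 with these 2 settings. The 7 lost increases included Hmgcs1, Idi1, Fdft1, Sqle and Msmo1, enzymes on the path from acetyl-CoA to cholesterol, and Insig1, which holds the sterol sensor in the endoplasmic reticulum. Insig1 read 3.49 to 3.66 in clean air and 4.15 to 4.96 in NiO at 3 days, and 3.9 to 4.34 and 3.48 to 4.35 at 1 month. NiO and clean-air arrays did not overlap at 3 days, as for 23.2% of all genes, and overlapped at 1 month, and the difference of -1.23 (SE 0.29, adjusted p 0.0142) compares with -0.59, -0.8 and -0.91 from its other 3 probes. Hmgcs1 had means of 2.71 and 3.8 at 3 days and 3.45 and 3.04 at 1 month, a difference of -1.5 (SE 0.38, adjusted p 0.0163). Its lowest NiO array of 3 days (3.01) was array 1. Fdft1 differed by -1.05 (SE 0.25, adjusted p 0.0137). Sqle differed by -1.1 (SE 0.3, adjusted p 0.0219), a call lost without clean-air array 1 of 3 days (adjusted p 0.0504). For all 4 of these genes both the NiO mean of 3 days and the clean-air mean of 3 days stood apart. Mvd and Fasn were kept, with effects of 0.64 and 0.33 and of 0.51 and 0.49.

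Among 33 measured cell cycle genes, 14 were called higher at 3 days and 8 at 1 month, beside 6.56% and 8.6% of all genes. Lost increases were 6 (Top2a, Ttk, Ccna2, Cdc20, Rrm2 and Cks2), beside 3.14% of all genes. Kept increases were 5 (Cdk1, Ccnb1, Ccnb2, Kif20a and Tpx2), beside 0.935%. The difference was called higher for 3 of the 33 and lower for 7, beside 11.4% and 18.2% of all genes. The lower calls numbered 3 with quantile normalization and 9 with normexp. Ttk, a kinase of the spindle checkpoint, had means of -2.93 and -1.81 at 3 days and -1.46 and -1.26 at 1 month: it was the clean-air level that was higher at 1 month, while the NiO level was not lower than at 3 days. Its difference was -0.92 (SE 0.24, adjusted p 0.0173). Top2a, which untangles DNA in dividing cells, differed by -0.88 (SE 0.18, adjusted p 0.00828), while its other probe gave -0.13. Cdk1, the kinase of mitotic entry, had effects of 0.85 and 0.48, and the difference of -0.37 was not called.

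Other lost increases came from several lists. Icos, a costimulator of activated T cells, read -3.85 to -3.14 in clean air and -2.13 to -1.99 in NiO at 3 days, then -3.01 to -2.66 and -2.99 to -2.65 at 1 month. The NiO arrays of 3 days were above all others, and the difference of -1.6 (SE 0.22, adjusted p 0.000936) compares with -1.53 from the other probe. Mmp7, a metalloproteinase made by lung epithelium, read -1.31, -0.97, -1.52 and -1.15 on the NiO arrays of 3 days, when no clean-air array was well above background, a rise of at least 14-fold. At 1 month its clean-air arrays lay between -5.56 and -4.44 and its NiO arrays at -3.77, -4.08, -1.42 and -4.67, so that 1 lung, array 3, held the 3-day level. Its difference was -2.48 or lower (adjusted p 0.0177). Sod2, the mitochondrial superoxide dismutase, and C3ar1, a complement receptor, were lost on the clean-air side. Their NiO means hardly moved between the times (-0.41 and -0.19, and -3.66 and -3.65), while their clean-air means were higher at 1 month (-1.55 and -0.26, and -4.7 and -3.54). C4bpb, a chain of a complement inhibitor, differed by -1.7 (SE 0.41, adjusted p 0.0153), and Nfkbiz, a regulator of NF-kB, by -0.85 (adjusted p 0.00583).

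Lost decreases on the NiO side were led by Plcxd3, Kcna3, Lrrc58 and Nat8. Plcxd3, of the phospholipase C family, was below that limit on all 4 NiO arrays of 3 days and lay between -4.45 and -4.23 in clean air, at least 1.42-fold lower. At 1 month its clean-air arrays spanned -4.71 to -3.03 and its NiO arrays -4.12 to -3.21. The difference was 0.57 or higher (adjusted p 0.00615). Kcna3, a potassium channel of T cells and macrophages, read -1.64 to -1.37 in clean air and -2.57, -3.89, -3.87 and -2.28 in NiO at 3 days. At 1 month it read -1.6 to -0.87 and -1.41 to -0.33, a difference of 1.98 (SE 0.52, adjusted p 0.019). Lrrc58, which carries leucine-rich repeats, differed by 1.65 (SE 0.42, adjusted p 0.0175). The 2 lowest NiO arrays for Kcna3 and Lrrc58 at 3 days were again arrays 2 and 3. Nat8, an acetyltransferase, was at least 1.11-fold lower at 3 days, and its difference of 0.27 or higher (adjusted p 0.0418) was not called in 10 of 15 leave-one-out fits, with adjusted p up to 0.0958. With C60 as the reference limma called the difference for none of these 4 genes. It was 1.8 for Kcna3 (adjusted p 0.231) and 0.7 for Lrrc58 (adjusted p 0.427). For Plcxd3 (adjusted p 0.561) and Nat8 (adjusted p 0.973) no C60 array of 3 days was well above background either.

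On the clean-air side, Frem2, an extracellular matrix protein of basement membranes, showed how a lost decrease can rest on 1 group. It read 0.21, 0.2 and 0.15 on the clean-air arrays of 3 days and between -3.34 and -2.22 on the other 12 arrays. Its C60 means were -2.22 and -2.85. The difference was 2.39 (SE 0.24, adjusted p 8.98e-05) with clean air and -0.07 (adjusted p 0.888) with C60. Tmem8b, a membrane protein, had means of -1.3 and -3.05 at 3 days and -3.79 and -2.94 at 1 month, a difference of 2.61 (SE 0.43, adjusted p 0.00295) that was 0.23 with C60.

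Endothelial genes held 8 lost decreases among 36 measured, beside 2.39% of all genes, and 13 were higher in the difference of differences, beside 11.4%. The higher calls numbered 11 with quantile normalization and 15 with normexp. Other members went another way: 7 of the 36 were called lower at 1 month, beside 15% of all genes, and 3 were lower in the difference, beside 18.2%. The list also held 2 kept decreases, beside 0.685% of all genes, and 3 late decreases, beside 8.16%. The 8 lost decreases were Tie1, Flt4, Cldn5, Plvap, Ace, Erg, Klf2 and Aplnr, and 7 of them were on the clean-air side, Erg being the exception. Summed over 6 endothelial markers, Tie1 among them, the level was 8.22 to 8.63 on the clean-air arrays of 1 month and 7.53 to 8.23 on all others, and its part in these values was not tested. Tie1, a receptor of the angiopoietin system, read 0.34 to 0.54 in clean air and 0.15, -1.27, -0.94 and -0.5 in NiO at 3 days, and -1.54 to -0.51 and -0.3 to -0.01 at 1 month. Its difference was 1.75 (SE 0.4, adjusted p 0.0122) and 1.65 from the other probe. Klf2, a flow-responsive transcription factor, had means of 2.64 and 1.11 at 3 days and 0.95 and 1.35 at 1 month. Genes that respond to glucocorticoid hormones held 7 lost decreases among 16 measured, beside 2.39% of all genes: Per1, Dusp1, Klf9, Cdkn1a, Cebpd, Errfi1 and Nfkbia. Other members of that list went another way. It held 2 kept increases, 1 late increase and 2 late decreases, beside 0.935%, 4.68% and 8.16% of all genes. The difference was called higher for 8 of the 16 and lower for 2, beside 11.4% and 18.2%. Per1, also a clock gene, read 2.57, 2.15 and 2.18 in clean air and 1.83, 0.3, -1.06 and 1.14 in NiO at 3 days, but -0.79 to 0.36 in clean air and 0.05 to 0.51 in NiO at 1 month. The clean-air level of 3 days was the high one, and the difference of 2.12 (SE 0.69, adjusted p 0.0371) was not called in 10 of 15 leave-one-out fits (adjusted p up to 0.0833). With C60 it came to 0.03. Cdkn1a, the cell cycle inhibitor p21, differed by 1.76 (SE 0.35, adjusted p 0.00781).

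Alveolar type I genes, of the thin gas-exchange epithelium, held 4 lost decreases among 16 measured, beside 2.39% of all genes: Aqp5, Akap5, Clic5 and Vegfa. Levels summed over 5 type I cell markers overlapped in all groups (8.09 to 8.61). Akap5, an anchor of protein kinase A, differed by 0.96 (adjusted p 0.0149), and Vegfa, the endothelial growth factor, by 0.98 (adjusted p 0.0126). Ager, a receptor abundant on type I cells, went from an effect of -0.6 at 3 days to 0.6 at 1 month, both called, a difference of 1.2 (SE 0.23, adjusted p 0.00687), and kept that class in 5 of 15 leave-one-out fits. Scgb1a1, the secretory protein of club cells, was a lost decrease with means of 4.36 and 3.57 at 3 days and 3.42 and 3.89 at 1 month. It stayed one in 3 of 15 leave-one-out fits, and its difference of 1.26 (SE 0.32, adjusted p 0.017) was called in all 15.

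Kept increases were led by Mmp12, the macrophage metalloelastase. It read -2.72, -2.8 and -2.73 on the clean-air arrays of 3 days and 3.05, 4.12, 3.87 and 3.67 on the NiO arrays. At 1 month clean air read -1.51, -1.19, -1.76 and -1.72, and NiO 1.2, 1.1, 4.24 and 0.15. NiO and clean air did not overlap at either time, which the rule that named Mmp12 required. Of the NiO lungs of 1 month, 3 lay below and 1, array 3, lay at the 3-day level. The effect was 86.1-fold at 3 days (6.43 log2, SE 0.67) and 9.3-fold at 1 month (3.22, SE 0.62). The difference of -3.21 (SE 0.92, adjusted p 0.0244) was not called without clean-air array 1 or array 3 of 3 days (adjusted p up to 0.0526). Without NiO array 3 of 1 month it was -4.07 (adjusted p 0.000148), and with C60 as the reference -2.85 (adjusted p 0.244).

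Cd177, a surface protein of neutrophils, followed the same pattern. Its NiO arrays read 4.4, 3.91, 4.03 and 4.33 at 3 days and 1.52, 1.57, 3.87 and 0.77 at 1 month, above clean-air ranges of -0.55 to -0.12 and -0.8 to -0.15. The effects were 4.47 (SE 0.51) and 2.41 (SE 0.47). Its difference of -2.06 (SE 0.7, adjusted p 0.0421) was not called in 13 of the 15 leave-one-out fits (adjusted p up to 0.0836), and was -2.71 (adjusted p 0.000452) without NiO array 3 of 1 month. Atp6v0d2, a subunit of the proton pump that acidifies lysosomes, read 0.39 to 1.61 and 0.1 to 1.17 in NiO, above -3.31 to -2.82 and -2.35 to -1.44 in clean air. Its effect was 15.2-fold at 3 days and 5.04-fold at 1 month. The difference of -1.59 (SE 0.44, adjusted p 0.0223) was lost without clean-air array 1 of 3 days (adjusted p 0.0572). Between the times the clean-air level of Atp6v0d2 was higher by 1.14 (adjusted p 0.0133) and its NiO level changed by -0.45 (adjusted p 0.256). With C60 the difference of Atp6v0d2 was -0.73 (adjusted p 0.443). Itih1, a plasma protein that binds hyaluronan, was at least 9.38-fold higher at 3 days and 4.08-fold at 1 month, when array 3 read -1.83 and the other NiO arrays -3.4 to -3.16. Its difference was -1.2 or lower (adjusted p 0.0168).

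NiO array 3 of 1 month had the highest value of the 4 NiO arrays of its time in 83.2% of the 232 kept increases and in 45.3% of the 779 lost increases, compared with 25.9% of all genes. The pattern was noticed after the values were seen, and its cause was not tested. Its median effect over the kept increases was 0.96, compared with 0.59 to 0.65 for the other 3 lungs. For Cxcl1, Ccl2 and Ccl7 its effects over the clean-air mean were 1.09, 1.53 and 1.77, when the other 3 NiO lungs lay between -0.46 and 0.58. At 3 days NiO array 1 had the lowest of the 4 NiO values in 69.8% of lost increases, compared with 45% of all genes, and the highest in 67% of lost decreases.

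Genes of macrophage activation and lipid handling held 10 kept increases among 22 measured, beside 0.935% of all genes. They were Trem2, Gpnmb, Lgals3, Spp1, Mmp12, Chi3l1, Fabp5, Lipa, Abcg1 and Atp6v0d2. The summed level of 6 measured macrophage and monocyte markers was 5.19 to 5.83 on the NiO arrays of 1 month and 4.7 to 4.84 on the clean-air arrays, but 4.62 to 5.22 and 4.64 to 4.73 at 3 days. The part of macrophage number in the values of these genes was not tested. Trem2, a lipid-sensing receptor of macrophages, read 1 to 1.31 in clean air and 4.36 to 4.91 in NiO at 3 days. At 1 month its clean-air arrays read 2.92, 1.97, 2.9 and 2.98 and its NiO arrays 5, 4.68, 5.64 and 4.42. The NiO level was thus about the same at both times and the clean-air level higher at 1 month. The effect went from 3.56 (SE 0.29) to 2.24 (SE 0.27), and the difference of -1.32 (SE 0.39, adjusted p 0.0274) was not called in 4 of 15 leave-one-out fits (adjusted p up to 0.0649). Gpnmb, a glycoprotein of lipid-loaded macrophages, had effects of 1.97 and 1.52. Spp1, which encodes osteopontin, had 2.32 and 2.07, and Lgals3, galectin-3, had 1.44 and 0.88. For these 3 the difference was not called. Abcg1, which exports cholesterol from macrophages, was kept and grew, from 0.62 to 1.14 (difference 0.52, adjusted p 0.0473). Arg1, an arginase of alternatively activated macrophages, read 4.23 to 5.13 in NiO at 3 days and 3.73, 3.6, 4.58 and 3.7 at 1 month, and its effect went from 2.58 (SE 0.25) to 1 (SE 0.23). The difference of -1.58 (SE 0.34, adjusted p 0.0103) was called in all 15 leave-one-out fits.

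Other kept increases by list were Lcn2 (3.28 and 2.23), an iron-sequestering protein of neutrophils and epithelium, and Hmox1 (1.5 and 1.33), which degrades haem. Slc26a4, an anion exchanger of airway epithelium, had effects of 3.91 (SE 0.42) and 2.14 (SE 0.39), with array 3 at 4.71 and the other NiO lungs of 1 month at 2.97 to 3.18. Its difference of -1.77 (adjusted p 0.0353) was not called in 10 of 15 leave-one-out fits (adjusted p up to 0.081). Metal handling held 5 kept increases among 21 measured, beside 0.935% of all genes: both ferritin chains (Fth1 at 0.54 and 0.36, Ftl1 at 0.79 and 0.53), the transferrin receptor Tfrc (1.18 and 0.62), Hp and Lcn2. Complement held 4 among 24, beside that same share (C3, C4bpa, C5 and Cfb), of which C3 had effects of 1.88 and 0.92. Jchain, which joins antibody chains in plasma cells, was kept at 2.12 (SE 0.43) and 1.41 (SE 0.4), and it remained in its class in 11 of 15 leave-one-out fits. The summed level of 4 measured B and plasma cell markers, Jchain among them, was -0.27 to 0.66 and 0.52 to 1.83 at 3 days and 0.26 to 0.91 and 1.09 to 1.75 at 1 month, clean air first each time. The part of cell numbers in this was not tested.

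Kept decreases were led by Tac1, the precursor of substance P and neurokinin A. Its clean-air arrays read -0.94, -0.81 and -1.06 at 3 days and -0.81, -0.44, -0.76 and -0.53 at 1 month. Its NiO arrays read -7.5, -6.41, -6.74 and -7.26 at 3 days, none of them well above background, and -6.81, -6.59, -6.46 and -5.07 at 1 month, with 1 of 4 above it. Every NiO array lay far below every clean-air array at both times, and arrays without overlap were a condition of naming it. It was at least 15.4-fold lower at 3 days (adjusted p 1.49e-06). It was also called lower at 1 month (adjusted p 4.43e-06), where no fold is given because 3 of the 4 NiO arrays were at background. The difference was not called (adjusted p 0.487). The C60 means of Tac1 were -0.54 and -0.15, beside the clean-air means. Vsig4, a complement receptor of resident macrophages, read -3.98 to -2.58 and -3.23 to -2.43 in clean air and -6.57 to -4.39 and -8.01 to -5.87 in NiO. It was called lower at both times, with 1 of 4 NiO arrays above background at 3 days and none at 1 month, when it was at least 7.32-fold lower. Fbp1, fructose-bisphosphatase, from the same list of resident macrophage genes, had effects of -2.52 and -2.12. Csprs, a nuclear protein related to Sp100, was at least 2.17-fold lower at 3 days, and at 1 month it was called lower with 1 of 4 NiO arrays above background. Tas2r118, a bitter taste receptor, was at least 1.82-fold lower at 1 month and no NiO array was above background at either time. Its C60 means of -6.58 and -7.89 lay at the NiO level (-6.71 and -7.95), not at that of clean air (-5.06 and -4.85). Tas2r118 passed the probe filter only through the clean-air arrays of 1 month, and Tac1, Vsig4 and Csprs only through clean-air arrays. Their signal above background there was thus fixed in advance.

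**Figure D4:**
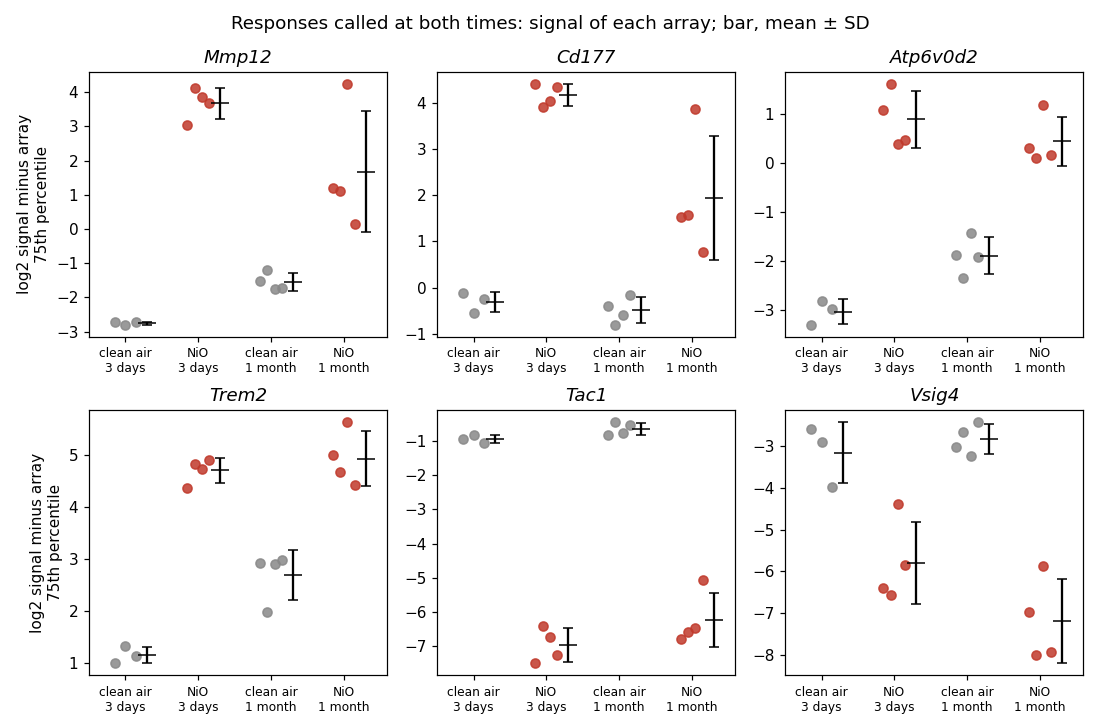
Scaled log2 signal (y axis) of 6 genes with a response at both times on each array of the 4 groups (x axis), with the mean and SD beside the points. NiO and clean-air arrays do not overlap at either time in any panel, a condition by which all of these genes but Trem2 were picked. Such arrays did not overlap for 23.2% of all genes at 3 days and 37.4% at 1 month. In 2 panels 1 NiO lung of 1 month, at 4.24 for Mmp12 and 3.87 for Cd177, lies at the 3-day level.

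Late increases included Mt1, a metallothionein that binds zinc, copper and other metals. It read 0.51 to 0.68 in clean air and 0.91, 0.07, 0.6 and 0.83 in NiO at 3 days. At 1 month clean air read 0.51, 0.14, 0.63 and 0.56 and NiO 2.28, 2.18, 1.92 and 1.91. Only the NiO arrays of 1 month stood apart. The effect went from -0.01 (SE 0.19) to 1.61 (SE 0.17), and the difference of 1.62 (SE 0.26, adjusted p 0.00225) was called in all 15 leave-one-out fits and was 0.98 (adjusted p 0.17) with C60. The Mt1 promoter is shown because metallothionein genes are the textbook case of control by a metal response element, whose core was searched here as TGCACNC or TGCGCNC on both strands. The window of 181 bases is chr19:10833011-10833191 on the minus strand (RefSeq, GRCr8), from -216 to -36 relative to the annotated start, with the 6 matches in capitals.
Mt1: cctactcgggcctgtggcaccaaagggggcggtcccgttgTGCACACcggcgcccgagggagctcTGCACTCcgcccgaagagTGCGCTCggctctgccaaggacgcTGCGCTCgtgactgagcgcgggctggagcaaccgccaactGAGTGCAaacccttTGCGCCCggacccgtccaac
At least 1 such match was found in 5829 of 27457 promoters (21.2%), and in 240 of the 726 promoters of late increases (33.1%), beside 29.4% of the promoters of all genes tested. Of 21 measured metal handling genes, Mt1 was the 1 late increase, beside 4.68% of all genes. The list also held 3 late decreases, beside 8.16%: Slc39a1 (difference -1.72), Cp (-0.81) and Slc40a1 (-0.68). Their differences were not called in 5, 0 and 1 of 15 leave-one-out fits.

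The NiO-side late increases named by rule were Dst, Mfsd2a, Xrcc5 and Adipor2. Adipor2, an adiponectin receptor, read 3.71 to 3.84 in NiO at 1 month, above 2.66 to 3.02 in clean air, and 2.37 to 3.13 on all arrays of 3 days. Its difference was 1.19 (SE 0.21, adjusted p 0.0039), and 0.68 from the other probe. Dst, a cytoskeletal linker, read 0.56 to 0.84 in NiO and -1.04 to -0.3 in clean air at 1 month. Its difference of 1.44 (SE 0.45, adjusted p 0.0318) was not called in 7 of 15 leave-one-out fits (adjusted p up to 0.0849). Mfsd2a, a lipid transporter, had a difference of 1.53 (SE 0.43, adjusted p 0.0234) with NiO array 3 of 1 month (-0.86) next to the clean-air range (-1.03 to -0.88). That call was lost in 2 leave-one-out fits (adjusted p up to 0.0595), the other probe gave 0.51 and the C60 reference -0.25. Xrcc5, the Ku80 subunit of DNA end joining, had means of 1.09 and 1.31 at 3 days and 2.01 and 2.94 at 1 month. Its difference of 0.7 (SE 0.25, adjusted p 0.0468) was not called in 13 of 15 leave-one-out fits (adjusted p up to 0.109).

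On the clean-air side stood Zbtb16 and Il17ra. Zbtb16, a transcription factor induced by glucocorticoids, read -2.6 to -1.58 in clean air and -5.38 to -2.32 in NiO at 3 days, and -6.36 to -4.45 and -3.72 to -1.58 at 1 month, with 2 of 4 NiO arrays of 3 days and 3 of 4 clean-air arrays of 1 month above background. Its difference of 4.23 (SE 0.94, adjusted p 0.0111) was 2.15 from the other probe and -0.43 with C60. Il17ra, the receptor subunit for interleukin 17, differed by 2.4 (SE 0.56, adjusted p 0.0128), and its clean-air mean went from -0.47 at 3 days to -2.84 at 1 month.

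By list, complement held 4 late increases among 24 measured (C2, C4a, Cfp and Cd59b), beside 4.68% of all genes. C2, a protease of the classical pathway, read 3.04 to 3.46 in NiO and 1.73 to 2.12 in clean air at 1 month, against 2.64 to 3.38 and 2.81 to 2.83 at 3 days. Its difference was 1.14 (SE 0.22, adjusted p 0.00707). Cfp, properdin, differed by 1.2 (SE 0.31, adjusted p 0.0189). Lysosome genes held 4 late increases among 26, beside the same share (Lamp1, Atp6v0c, Atp6v0d1 and Tfeb), of which Atp6v0c, the proton pump's membrane ring, differed by 1.17 (SE 0.29, adjusted p 0.0163). Tfeb, the transcription factor of lysosome genes, differed by 1.01 (adjusted p 0.0212), a call lost without clean-air array 3 of 3 days (adjusted p 0.0509). In limma the clean-air mean was lower at 1 month than at 3 days for Atp6v0c (-0.6, adjusted p 0.0374) and Tfeb (-0.74, adjusted p 0.0113). The NiO change was called for Atp6v0c (0.57, adjusted p 0.0385) but not for Tfeb (0.28, adjusted p 0.265). With C60 their differences were 0.4 (adjusted p 0.414) and 0.24 (adjusted p 0.608). Beside the late increases stood 12 of 26 lysosome genes called higher at 1 month and 6 at 3 days, where 8.6% and 6.56% of all genes were. Another 1 was called lower at 1 month, and the difference was called higher for 4 of the 26 and lower for 3. Pparg, a lipid-sensing nuclear receptor of alveolar macrophages, read 0.7 to 1.11 in NiO at 1 month and -0.33 to 0.48 on the other 11 arrays. Its difference was 0.79 (SE 0.18, adjusted p 0.0112). Tgfb1, the growth factor tied to matrix deposition, had means of -0.72 in clean air and -0.91 in NiO at 3 days and of -1.32 and -0.58 at 1 month, a difference of 0.94 (SE 0.21, adjusted p 0.0122). The clean-air mean was lower at 1 month than at 3 days by a called change (-0.61, adjusted p 0.0081), while the NiO change of 0.33 was not called (adjusted p 0.0912), and with C60 the difference of Tgfb1 was 0.26 (adjusted p 0.432). The matrix and fibrosis list held 3 late increases among 22 (Tgfb1, Sparc and Col4a2), 0 lost and 0 kept, beside 4.68%, 5.53% and 1.62% of all genes. Col4a2, a basement membrane collagen chain, was on the clean-air side, with means of 1.28 and 0.68 at 3 days and -0.29 and 0.58 at 1 month. Sparc, a collagen-binding matrix protein, differed by 0.8 (SE 0.19, adjusted p 0.0127), and by -0.08 with C60. Alveolar type II and surfactant genes were called higher for 4 of 25 at 3 days and 11 of 25 at 1 month, beside 6.56% and 8.6% of all genes, with 4 kept (Lamp3, Fasn, C5 and Ctsh) and 3 late (Napsa, Cebpa and Scd2) increases.

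**Figure D5:**
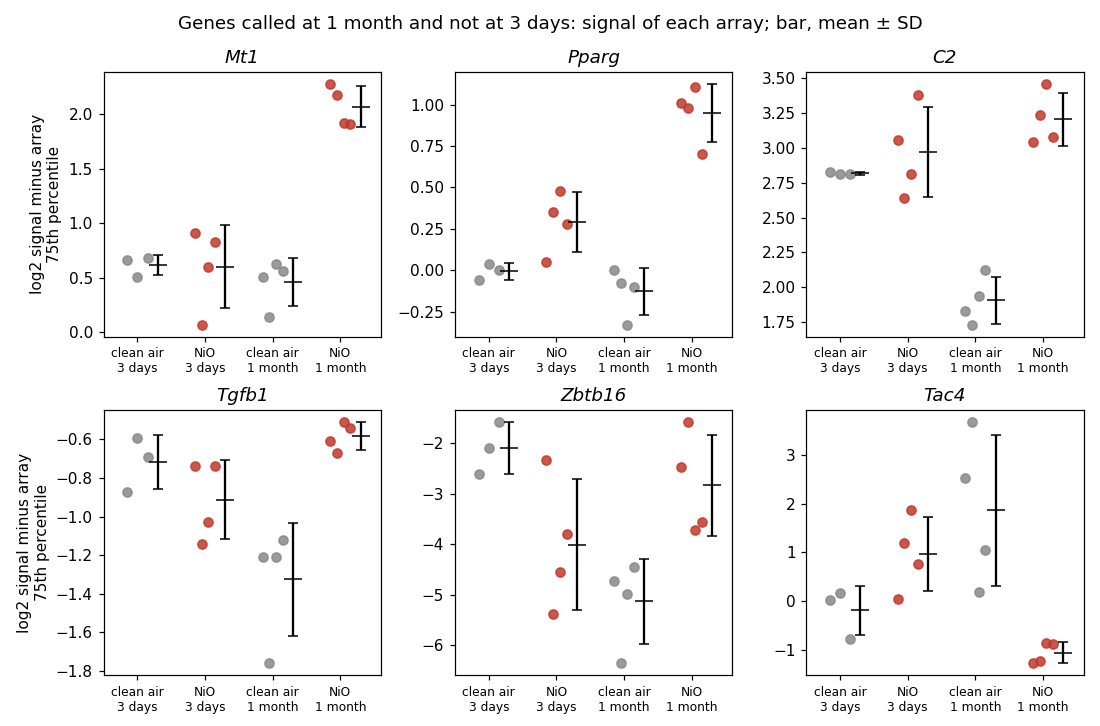
Scaled log2 signal (y axis) of 6 genes called at 1 month and not at 3 days on each array of the 4 groups (x axis), with the mean and SD beside the points. NiO and clean-air arrays of 1 month do not overlap in any panel, as for 37.4% of all genes. The mean of clean air differs between the times by -3.05 log2 units for Zbtb16 and by -0.16 for Mt1.

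Late decreases on the NiO side were led by genes of low signal. Or4f58, an olfactory receptor, was above background on 0 of 4 NiO arrays of 1 month and on all 4 clean-air arrays, at least 3.17-fold lower, and its difference was -1.02 or lower (adjusted p 0.0177). Its probe passed the filter only through those clean-air arrays, so that its signal above background there was fixed in advance. Bco1, which splits beta-carotene, read -2.78 to -2.54 in NiO and -1.35 to 0.25 in clean air at 1 month, but -2.44, 0.57, 0.87 and -1.3 in NiO at 3 days, with arrays 2 and 3 high. It remained a late decrease in 4 of 15 leave-one-out fits. Its difference was -3.07 (SE 0.87, adjusted p 0.0233), and the call was lost without clean-air array 1 of 3 days (adjusted p 0.0545). Or52e15b, a further olfactory receptor, was called in the difference (adjusted p 0.0164), with 1 of 3 clean-air arrays of 3 days and 1 of 4 NiO arrays of 1 month above background, so that its size is not given. Pdk4, a brake on glucose oxidation, was above background on 1 of 4 clean-air arrays and 0 of 4 NiO arrays of 1 month and has no fold there, and its difference was not called in 12 of 15 leave-one-out fits (adjusted p up to 0.111). On the clean-air side, Or52h7 had means of -4.11 and -2.58 at 3 days and -1.77 and -3.88 at 1 month, a difference of -3.65 (SE 0.72, adjusted p 0.00719) that was -0.42 with C60. Fgf2, a fibroblast growth factor, differed by -3.69 or lower (adjusted p 0.00802), while its other probe gave 0.59.

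Sensory neuropeptides and markers of tissues beside the lung were among the late decreases of the lists. Of 12 measured neuropeptide genes, 7 were called lower at 1 month, beside 15% of all genes, and 4 were late decreases (Tac4, Calca, Vip and Adcyap1), beside 8.16%. The differences called were 1 higher and 5 lower, but 2 and 2 with quantile normalization, which moved the median 1-month effect of these genes from -0.72 to -0.3. Tac4, a tachykinin of blood-forming cells, read 2.53, 3.67, 0.19 and 1.05 in clean air and -1.26 to -0.85 in NiO at 1 month, and -0.77 to 0.17 and 0.04 to 1.86 at 3 days. Its difference was -4.07 (SE 0.89, adjusted p 0.0108). Adipoq, a fat cell hormone, read -0.75, -0.19, 0.78 and 0.8 in clean air and -1.58 to -0.98 in NiO at 1 month. Its difference was -2.46 (SE 0.57, adjusted p 0.0126) with clean air and -2.64 (adjusted p 0.0841) with C60. The summed level of 3 measured fat cell markers, Adipoq among them, overlapped between the groups (2.42 to 3.9). Hspb7, a heat shock protein of heart muscle, differed by -3.19 (SE 0.63, adjusted p 0.00711), and by 0.65 from its other probe. Myh7, the slow myosin heavy chain, was called higher at 3 days (0.94) and lower at 1 month (-0.74), and its difference was called with either reference (-1.68, adjusted p 0.00703 with clean air and -1.71, adjusted p 0.0437 with C60). The summed level of 5 heart muscle markers was 6.37 to 7.01 at 3 days and 6.04 to 7.12 at 1 month. The part of other tissue in these results was not tested. Tpsab1, mast cell tryptase, read 1.15 to 1.26 in NiO and 1.58 to 2.66 in clean air at 1 month, a difference of -1.47 (SE 0.35, adjusted p 0.0148). Summed over 5 mast cell markers, Tpsab1 among them, the level was 2.76 to 3.06 in NiO and 3.11 to 3.39 in clean air at 1 month, and overlapped at 3 days. Its part in this was not tested.

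Genes whose direction turned between the times included Csf1, the growth factor of macrophages, which was called higher at 3 days (0.61, SE 0.17) and lower at 1 month (-0.5, SE 0.15). It differed by -1.12 (SE 0.23, adjusted p 0.00808) and by -0.55 from its other probe, and it kept this class in 2 of 15 leave-one-out fits. Of the 31 genes called with both references, 14 were late decreases, among them Itga6, a laminin receptor chain (-1.17 and, with C60, -2.41), Scg3, Mb and Adamts9. Of the others, Ccl22, Ccl17 and Apoa4 were lost increases, Gpr18 and Tshr lost decreases, Ccr1 and Atp6v1c2 late increases and Myh7 and Aoah among those that turned, named after their values were seen. Ccr1, a receptor for Ccl3 and related chemokines, had means of 0.28 and -0.24 at 3 days and -0.13 and 0.71 at 1 month. Its difference was 1.36 (adjusted p 0.00233) with clean air and 1.27 (adjusted p 0.049) with C60. Aoah, an enzyme that inactivates endotoxin, had means of -2.14 and -2.99 at 3 days and -1.61 and -1.09 at 1 month. It was called lower at 3 days and higher at 1 month.

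Some lists held few responses in these classes. Interferon response genes were lower in the difference of differences for 6 of 26, near the 18.2% of all genes, with 1 lost increase (Ifit2, -1.31, adjusted p 0.0139) and 1 late decrease. T and NK cell genes were lower for 5 of 28, again near that share, with 2 lost increases (Icos and Cd2). Ciliated cell genes had 4 of 21 called lower at 3 days and 5 at 1 month, beside 4.62% and 15% of all genes. In the classes this list held 1 lost decrease and 1 late increase, and 2 of its genes were called in the difference, beside 29.6% of all genes. Respiratory chain genes had 0 lost, kept or late responses among 27 measured and proteasome genes 1 among 25. In limma 0 of 25 proteasome and 0 of 27 respiratory chain genes were called lower at either time. Of all genes, 4.62% were called lower at 3 days and 15% at 1 month. Among respiratory chain genes 2 were called higher at 3 days and the difference was called for 5, beside 6.56% and 29.6% of all genes. Red blood cell markers, 9 measured, held 1 lost decrease (Klf1, 1.13, adjusted p 0.00735). The lists cover 745 genes, of which 75 were lost, 60 kept and 60 late, where 5.53%, 1.62% and 12.8% of all genes were.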

How the data were processed

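Whole-lung RNA was hybridised to 1-colour rat oligonucleotide arrays, and 15 arrays of 4 groups entered the fit. Per the file headers, Feature Extraction 9.5.3.1 made the deposited spot intensity values, from which a fitted spatial surface had been taken off as background and a multiplicative trend removed. The authors also deposited 1 column per group of linear ratio values, which entered no test. From the intensity, log2 minus the array's 75th percentile was taken over 41012 probes. The 28497 probes well above background on every array of at least 1 group were kept, and the brightest probe on average stood for each of 3010 genes with several. Of the 24823 genes, 13467 had a symbol, from the files and the GRCr8 gene table and the rest go by probe. Spots flagged as outliers were left out of a probe's mean. Testing used limma 3.58.1 in R 4.3.3 (lmFit, then eBayes, with 11 residual and 2.36 prior degrees of freedom), with no covariate, and the fit was tested on simulated data. A group with no array well above background has only a bound ("at least N-fold", "or lower", "or higher"). Per class and direction, the 4 NiO-side genes with arrays apart and the largest fold and the 2 clean-air-side genes with the largest difference are named. Up to 4 called members of each of 40 gene lists were also picked by rule, and not all of these are described above. Other genes named were chosen after their values were seen. The members and lists were chosen with earlier results of these data known. Alternatives were 6 groups in 1 fit, C60 as the reference, quantile normalization, normexp, other probe filters and averages, array weights, stricter thresholds, leaving out 3 arrays far out on the first component (chosen after seeing the data) and each array left out in turn. The number of arrays limits the precision.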

Additional observations from a re-analysis of the deposited data

Results flagged for a closer look

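A single array lay far from the other 3 of its group in 18 of the 438 sets of 4 arrays examined by Dixon's ratio of gap to range, where chance gives about 5%. Of these, 7 were NiO array 3 of 1 month: Hk2 -4.59 (others -5.09 to -5.07), Ccl17 -2.26 (-3.19 to -3.04), Itih1 -1.83 (-3.4 to -3.16), Ccl2 1.24 (-0.27 to -0.04), Arg1 4.58 (3.6 to 3.73), Slc26a4 4.71 (2.97 to 3.18) and Sqle 0.67 (1.59 to 1.7). Another 6 were clean-air array 2 of 1 month, which also lay far out on the first principal component: Dst -1.04 (-0.35 to -0.3), Kcna3 -1.6 (-0.9 to -0.87), Tgfb1 -1.76 (-1.21 to -1.12), Trem2 1.97 (2.9 to 2.98), Mmp11 -2.25 (-1.81 to -1.76) and Tie1 -1.54 (-0.68 to -0.51). NiO array 4 of 1 month held Xrcc5 2.6 (3.01 to 3.09), Akap5 5.96 (6.08 to 6.09) and Canx -1.36 (-1.62 to -1.58). Clean-air array 3 of 1 month held Pdk4 -5.41 (-6.13 to -6.12) and Kit -1.31 (-0.84 to -0.82).

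The NiO effect differed between the 2 times by limma's test of the difference itself for 29 genes named by rule, with these differences of scaled log2 signal. Among lost increases they were Ccl22 -2.08, Hk2 -1.47, Serinc4 -2.69, Ccl17 -1.11, Or12e9 -3.43 and Or2v2b -3.26. Among kept responses they were Mmp12 -3.21, Cd177 -2.06, Atp6v0d2 -1.59, Itih1 -1.99 and Tas2r118 -1.44. Lost decreases gave Plcxd3 2.36, Kcna3 1.98, Lrrc58 1.65, Nat8 1.41, Tmem8b 2.61 and Frem2 2.39. Late increases gave Dst 1.44, Mfsd2a 1.53, Xrcc5 0.7, Adipor2 1.19, Zbtb16 4.23 and Il17ra 2.4. Late decreases gave Or4f58 -1.47, Bco1 -3.07, Or52e15b -3.05, Pdk4 -1.1, Fgf2 -4.22 and Or52h7 -3.65. For Hk2, Itih1, Plcxd3, Nat8, Or4f58, Or12e9, Or2v2b, Pdk4, Fgf2 and Tas2r118 1 or more groups were not well above background, so these fitted sizes are not bounds. For Or52e15b and Zbtb16 2 groups were above background on only some of their arrays, so that these sizes are not firm either.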

How the results depend on the processing

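The counts of the classes depended on the arrays and the reference more than on the probe filter, as the values here show, and the cause was not tested. No paired analysis was possible because the labels give the arrays no replicate numbers. Leaving out 1 array in turn, the difference of differences gave 1284 to 4391 higher and 2420 to 7368 lower calls, the 3-day effect 710 to 4762 and 389 to 3454, and the 1-month effect 921 to 3074 and 2034 to 4886. Lost increases numbered 283 to 2745 and decreases 182 to 1639, kept ones 132 to 358 and 82 to 261, and late ones 353 to 1178 and 1049 to 2397. Every highest count came without NiO array 1 of 3 days, and the lowest without clean-air array 1 or 2 of 3 days or NiO array 2 or 3 of 1 month. Without the 3 arrays far out on the first component there were 769 higher and 1581 lower differences, 870 and 494 calls at 3 days, 274 and 157 lost and 455 and 975 late responses (increases first). With all 6 groups in 1 fit there were 2777 and 1966 calls at 3 days, 1448 and 965 lost and 370 and 266 kept. Array weights gave 5105 and 8737 differences, 6106 and 4346 calls at 3 days, 4802 and 7779 at 1 month, 2619 and 1652 lost, 657 and 625 kept and 3138 late decreases. With C60 as the reference limma called 37 and 46 differences, 854 and 498 genes at 3 days, 136 and 64 at 1 month, 38 and 36 lost, 67 and 14 kept and 0 and 7 late. With the spread from 6 groups these were 49 and 69 differences, 676 lower at 3 days, 211 and 98 at 1 month, 58 and 42 lost, 115 and 18 kept and 5 and 8 late. Quantile normalization gave 2254 lower differences, 2119 lower calls at 1 month and 920 late decreases, and normexp 87 kept decreases. No filter gave 681 lower calls at 3 days, 323 lost and 107 kept decreases and 697 late increases, and probes well above background on every array gave 107 kept decreases. At an adjusted p under 0.01 there were 206 and 69 lost, 64 and 39 kept and 48 and 294 late, and with at least 1 log2 unit as well 166 lost decreases, 51 and 64 kept and 143 and 1300 late. The difference of single genes changed sign with C60, with either spread, for Mfsd2a (-0.25), Zbtb16 (-0.43), Nat8 (-0.05), Tas2r118 (0.08), Frem2 (-0.07), Il1r1 (-0.39), Nfkbia (-0.21), Sparc (-0.08), Gclm (1.67), Nos3 (-0.24), Gpx4 (-0.06), Rfx3 (-0.91), Tekt2 (-0.23), Notch3 (0.31), Tagln (-0.31), Atf6 (-0.14), Kit (0.09), Ndufv1 (-0.04) and Calca (0.24). It did so with quantile normalization for Pdk4 (0.08), with normexp for Nat8 (-0.02), Tac1 (-0.49), Csprs (-0.34), Il1r1 (-0.09) and Rfx3 (-0.05), with the mean of a gene's probes for Gpx2 (-0.13) and Cd6 (0.08), and with array weights for Tac1 (-0.11). The differences of Tac1 and Csprs were not called to begin with. Calls of single genes were lost more often than signs were changed. Without the 3 arrays far out on the first component, 95 of the genes picked by rule lost the call of their difference and 51 did not. With C60 as the reference 119 lost the call with the sign unchanged, 19 changed sign and 8 did neither. The 2 alternatives with the spread from 6 groups and without the 3 arrays were chosen after seeing the data. Against the deposited ratio table, 71 named genes moved by less than 1 SD and 75 by more. Signals near background limit the genes given as bounds.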
